A study of Saccharomyces cerevisiae with 9 samples.

Results

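GC-rich leaders are the wild-type yeast 5′ leaders of the pool in which G and C make up at least 48% of the bases. They were chosen on sequence alone, as leaders of at least 30 and under 110 nt with no run of 8 or more A and no run of 6 or more T. The deposited table, which may not hold the whole pool, gave 5762 pool RNAs and 4383 complete wild-type RNAs. The rule was met by 119 leaders of 103 genes, among 2455 leaders of 1577 genes that met its length and run limits. Of the genes with an eligible leader, 6.53% therefore had a GC-rich one. Between genes the longest GC-rich leader of each gene was compared with the longest eligible leader of the 1474 genes that had none at 48% or above.

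The pool was transcribed in vitro with T7 RNA polymerase from synthetic Saccharomyces cerevisiae sequences and probed with dimethyl sulphate (DMS), which marks unpaired A and C. By the labels, 9 libraries fell into 3 groups of 3 replicates, namely RNA heated to 95 °C for 2 min and then given DMS, RNA refolded and given DMS for 2 min at 30 °C, and RNA refolded and incubated in the same way without DMS. RNA folded in a tube carries no cap, ribosome, helicase or other cell protein. Reactivity, depth and replicate error were not analysed here, because the value columns name a replicate number and no condition, so all values below are properties of the sequences or of structures predicted from them.

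In yeast the small ribosomal subunit with its initiation factors loads near the cap and moves along the leader until it meets a start codon in a suitable context. Yeast leaders are typically rich in A and poor in G, and stable stems in a leader are known to hinder loading and scanning, a load that helicases of the eIF4A and Ded1 families relieve. A G–C pair has more hydrogen bonds than an A–U pair and stacks strongly, so GC-rich leaders are where such stems are most often looked for.

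The sequences below show how differently G and C are shared out in GC-rich leaders. Each is the 20-nt stretch with the most G and C in its leader, in DNA letters 5′ to 3′ as the deposited table gives the RNA, with G and C in capitals. The first 3 mix G and C, the next 3 hold mostly C, and the last 2 hold mostly G.
GAT1: GCGGtGCCCGGCCCaGCCaC
PET494: GGCaCCCGaGCaGGCGtGGa
RRN5: CaGCGCataCGaCGGtCaCC
YAT1: CCaCaCCCGCCCaCCCCtCC
HAC1: CCtCCtCCCCCaCCtaCGaC
GLN3: GGGCCCCCttttCCCCCaCC
MTC4: GCaGaGGaGGGGGaGGtaCt
NUP49: GGttttCaCGGGtaGtGGGC

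The stretch of GAT1, which encodes a GATA activator of genes for nitrogen use, held 17 G or C in 20 nt (85%) and ended 40 nt before the start codon. That of YAT1, which encodes a carnitine acetyltransferase of mitochondria, held 15 C and 1 G. The stretch of MTC4 held 11 G and 2 C.

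The second set shows 10 hairpins of 30 nt or less in genes with a symbol, each the strongest predicted for its leader folded on its own and picked to show both outcomes below. Capitals mark the bases that pair, and every stem shown lies at or below −5 kcal/mol at 30 °C. The first 6 were also likely in the complete RNA, whereas the last 4 were nearly absent from it.
HMS2: CAGTCCGCGAcatTTGCGGACTG
GAL80: GCTGGTCcttgccGACCAGC
SDP1: GGCTGCgcacttGTAGCC
SPT3: CgTGCCaaAATTcaagaGATTagGGCAgG
MGS1: GCgGTaaGATCTgaaacaGGATCgcACaGT
PRP40: GGTCTGaagcCAGATC
PET494: GCTTGGaGacaGCaaagGCaCCCGAGC
MOG1: TGgtCATTGCagtgGCAGTGgaCA
TAF13: CGGCagGCgaggGTgaGCTG
SNA4: GTgCCacaCTGagcagagaCAGataGGgAC

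GC-rich leaders were shorter than the rest and gained G and C in nearly equal amounts. Their mean length was 46.3 nt against 62.3 nt (SD 16.6 and 22.1, n = 103 and 1474 genes). The choice of leaders favours this order. In 25 genes with a GC-rich leader a longer eligible leader below the GC limit was passed over, whereas the other genes always gave their longest eligible leader. How much of the gap comes from this choice was not tested. C made up 26.2% ± 8.08 of the bases against 17.5% ± 5.62 and G 25.2% ± 7.92 against 17.4% ± 6.11, and both A (30.3% against 38.96%) and U (18.4% against 26.2%) were lower. Within the set, C ran from 9.09% in EAF7 to 48.8% in YAT1, and G from 6.98% in YAT1 to 40% in MTC4. CpG dinucleotides stood at 0.848 ± 0.455 times the number that the C and G contents predict, close to the 0.816 ± 0.697 of the other leaders.

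Among genes with a symbol the highest GC contents were those of GAT1 (61.9% over 63 nt), PET494 (61.4% over 44 nt), which encodes a translational activator of a mitochondrial mRNA, and DEP1 (60.6% over 33 nt), which encodes a subunit of a histone deacetylase complex. They were followed by VMA4 (60%), which encodes a subunit of the vacuolar proton pump, RRN5 (59.4%), a factor for RNA polymerase I, SND3 (59.4%), which takes part in targeting proteins to the endoplasmic reticulum, and EMC3 (56.7%), a subunit of the membrane protein insertase there. OST3 (55.9%), a subunit of the oligosaccharyltransferase, YAT1 (55.8%) and PET117 (54.8%), a cytochrome oxidase assembly factor, completed the 10, with SDP1 and UFO1 equal to PET117. Just inside the limit lay LOT6 and STE50 with 48.1% each, and just outside it SEC8 with 47.8% and PAC1 with 47.5%. The predicted unpaired probabilities of these 4 leaders were 0.326, 0.494, 0.515 and 0.507, in this order.

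On average other yeast leaders held least GC next to the start codon, and GC-rich leaders did not. With each leader cut into 3 equal parts, the GC content of the GC-rich leaders was 51.0% ± 11.6 in the 5′ part, 50.5% ± 11.5 in the middle and 52.8% ± 10.9 next to the start codon. In the other leaders the same parts held 36.0% ± 10.2, 35.6% ± 10.3 and 32.9% ± 10.7. The higher level in GC-rich leaders follows from the rule, so only the course along the leader is described. In both sets the parts differed by less than the SD over genes. The last 10 nt before the start codon held 53.2% ± 12.9 against 32.9% ± 14.5, with the highest value of 90% in SND3 and EMC3 and the lowest of 20% in ALE2. The GLN3 leader, with 51.9% GC as a whole, held 30% there.

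The base 3 nt before the start codon, where A is the known favourable base in yeast, was A in 46 of the 103 genes (44.7%, 95% Wilson interval 35.4 to 54.3) against 61.8% of all 1577 genes. C took most of the difference, with 20 of 103 genes (19.4%) against 8.12% of all genes. G stood there in 23 genes (22.3%, against 19.1% of the others) and U in 14 (13.6%, against 10.6%). Since the rule favours G and C at every position, the neighbours serve as a reference. At the base 2 nt before the start codon A made up 34.95% against 42.9% in the others, and 1 nt before it 31.1% against 44.1%, so A was still the most frequent base at each of the last 3 positions. At the 3 positions before these it was not, and 6 nt before the start codon A stood in 14.6% of GC-rich leaders, C and G in 32.0% each. The 15 nt up to and including the start codon are shown for 4 genes, with the base 3 nt before the start codon in capitals.
GAT1: cccggtattAgcatg
HAC1: acaaccgccActatg
CAR2: accacaacaCcaatg
GLN3: accaacaaaCaaatg

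GC-rich leaders were predicted to be slightly more paired than other leaders. The unpaired probability of a base is 1 minus the sum of its pair probabilities in the complete RNA folded at 30 °C, averaged here over the leader. It was 0.456 ± 0.0918 in GC-rich leaders and 0.491 ± 0.100 in the others (SD), with a difference of −0.0354 (SE over genes 0.00941) that is less than either SD. The value lay below the median of all genes, 0.477, in 66 of 103 GC-rich leaders, where 50% of all genes lie by construction. Across all eligible genes the mean went from 0.547 ± 0.118 in 76 genes under 25% GC to 0.521, 0.498 and 0.479 in the steps up to 40% GC and to 0.463 ± 0.0918 in the 215 genes between 40% and 44%. Above that it hardly moved, with 0.468 ± 0.0983 from 44% to 48% (92 genes), 0.460 ± 0.0925 from 48% to 52% (73 genes) and 0.446 ± 0.0908 at 52% or above (30 genes). Steps above 40% thus differed from each other by less than the SD within a step, but so did neighbouring steps below 40%. The steps were not matched for length, with a mean of 64.7 nt from 35% to 40% and 43.0 nt at 52% or above.

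Length was set against the difference between GC-rich and other leaders because GC-rich leaders were shorter. The bands did not equalise length fully. From the shortest band to the longest, GC-rich leaders averaged 32.8, 48.7 and 72.8 nt and the others 34.4, 49.1 and 81.9 nt. Among leaders of 30 to 39 nt the unpaired probability was 0.459 ± 0.0806 in 49 GC-rich leaders and 0.517 ± 0.126 in 254 others. For leaders of 40 to 59 nt it was 0.450 ± 0.101 (32 genes) and 0.499 ± 0.109 (514 genes), and in those of 60 nt or more 0.458 ± 0.104 (22 genes) and 0.476 ± 0.0782 (706 genes). The gap was −0.0584 (SE 0.0140) in the shortest leaders, −0.0491 (SE 0.0185) in the middle band and −0.0179 (SE 0.0224) in the longest. In every band it was smaller than the SD over genes of either set.

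Around the start codon GC-rich leaders were predicted to be no more closed than others. The unpaired probability over the 10 nt before the start codon and the 10 nt from its first base was 0.484 ± 0.142 against 0.472 ± 0.124, a difference of 0.0121 (SE 0.0143). The sign of this difference turned with the GC limit, to −0.0167 (SE 0.0104) at 45% and −0.00142 (SE 0.0177) at 50%. Across GC steps the mean went from 0.517 under 25% GC to 0.434 between 44% and 48%, and was 0.487 and 0.476 in both steps above. The most open start codons were those of GLN3 (0.895), DDP1 (0.734), PRS4 (0.727), SDP1 (0.721) and OST3 (0.719) among genes with a symbol. The most closed among them were those of ERV15 (0.204), SSL1 (0.225) and PET117 (0.227). At the 5′ end, the first 10 nt after the added GGG had 0.416 ± 0.204 against 0.450 ± 0.191 (difference −0.0344, SE 0.0207), and in the 22 longest leaders the sign turned, with 0.477 ± 0.252 against 0.430 ± 0.190.

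Most of the predicted pairing of a GC-rich leader went outside the leader. Of the summed pair probability of leader bases, 34.2% ± 26.2 fell to partners within the leader, against 48.8% ± 26.1 in other leaders. The coding part took 41.0% ± 28.3 against 37.1% ± 25.3, the constant 20 nt at the 3′ end of the construct took 21.3% ± 18.7 against 11.8% ± 13.2, and the added GGG 3.49% ± 4.68 against 2.23% ± 4.22. Length moves with the first share, since short leaders have fewer partners of their own. The difference over all lengths is thus also affected by the choice of leaders, which passed over longer leaders on the GC-rich side alone. In leaders of 30 to 39 nt the leader's own share was 26.4% ± 24.2 against 32.5% ± 26.0, and in those of 60 nt or more 51.1% ± 26.1 against 58.9% ± 21.4. Within the latter band GC-rich leaders were still shorter, with a mean of 72.8 nt against 81.9 nt. The share of the constant end was higher in GC-rich leaders in each length band, with 26.0% against 14.9%, 19.2% against 12.6% and 14.1% against 10.1% from the shortest band to the longest.

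The constant end belongs to the construct and not to the yeast mRNA, so pairing with it says nothing about the cell. It took more than 50% of the leader's pairing in 8 of 103 GC-rich leaders and in 1.29% of the others. This count was not matched for length, since the 8 leaders had 31 to 44 nt and the others a mean of 62.3 nt. These 8 were SUI3 (76.4%), SND3 (67.2%), EAF5 (64.0%), CDC24 (60.1%), SDH7 (59.4%), NUP49 (56.9%), MOB2 (55.6%) and ADE57 (54.9%). The leader pieces predicted to pair with it are shown for 4 genes, with the bases of a pair probability above 0.5 in capitals.
SUI3: GCACgCaCGAG
SND3: GCACaaGAGAACCG
CDC24: ACCCGAGAGaTC
SDH7: GTGCCaCaGAGAAcTTCC

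In SUI3 and CDC24 this piece ran up to the start codon, and their start windows were among the closed ones, at 0.278 and 0.272. With the GGG and the constant end left off before folding, the SUI3 window opened to 0.561 while its leader mean went from 0.625 to 0.552. Over all genes the same change brought GC-rich and other leaders closer, to 0.501 and 0.521, with a difference of −0.0192 (SE 0.00926). The change in temperature to 37 °C left the difference at −0.0398 (SE 0.00943).

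Within each length band a larger share of GC-rich leaders than of other leaders held a strong hairpin, with the widest gap at 40 to 59 nt. A hairpin was counted where the most stable single stem-loop of the leader folded alone reached −5 kcal/mol or lower at 30 °C. This was so in 42 of 103 GC-rich leaders (40.8%, Wilson interval 31.8 to 50.4) against 45.6% of all genes and 45.9% of the others. This order over all lengths turned when each leader was counted on its own, with the shortest leader per gene, with a limit of 45% GC and with folding at 37 °C. At 30 to 39 nt it was 7 of 49 (14.3%) against 20 of 254 others (7.87%), at 40 to 59 nt 18 of 32 (56.2%) against 157 of 514 (30.5%), and at 60 nt or more 17 of 22 (77.3%) against 500 of 706 (70.8%). The Wilson intervals overlapped in the shortest and longest bands, which held 49 and 22 GC-rich leaders, and not in the middle one. This is no test, since leaders are not replicates, and the bands were chosen after the data were seen. The longest band was not matched for length, since its GC-rich leaders averaged 72.8 nt and the others 81.9 nt. The folding energy of the leader per nucleotide was lower, at −0.158 ± 0.0910 against −0.123 ± 0.0680 kcal/mol per nt, and the complete RNAs had −52.2 ± 7.35 against −45.1 ± 6.89 kcal/mol.

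Most of these hairpins were not kept in the complete RNA. The minimum energy structure of the whole RNA held the hairpin pair for pair in 15 of the 42 GC-rich leaders that had one (35.7%), and in 33.8% of the 677 others. The next values cover the strongest hairpin of each leader at any energy, weak ones included, and were not matched for length, although GC-rich leaders were shorter. Averaged over its pairs, the pair probability in the complete RNA had a median of 0.0400 in 100 GC-rich leaders and 0.213 in 1407 others. Both sets had a range from near 0 to above 0.99. The remaining 3 GC-rich leaders, those of CAR2, TIR3 and YAT1, were predicted to form no stem at all when folded alone.

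GAT1 had the most stable hairpin among genes with a symbol, −23.1 kcal/mol over 60 of its 63 nt, reaching up to the start codon. Its mean pair probability in the complete RNA was 0.483, and 84.0% of the leader's pairing stayed within the leader. HMS2 followed with −16.5 kcal/mol for the 23-nt hairpin shown above, which lay 63 nt before the start codon and had a mean pair probability of 0.922. The BUD17 hairpin of −14.1 kcal/mol had one of 0.000728, and the model paired the leader with the coding part (70.5%) and the constant end (29.4%). In GAL80, which encodes the inhibitor of the galactose activator Gal4, the 20-nt hairpin of −12.7 kcal/mol had 5 G–C pairs among 7 pairs and a probability of 0.999. SDP1, which encodes a phosphatase of MAP kinases, had −9.68 kcal/mol and a probability of 0.999 in a 31-nt leader, with the hairpin ending 10 nt before a start codon that was itself open (0.721). The 35-nt hairpin of ARE1, a sterol acyltransferase gene, had −9.67 kcal/mol alone and a probability of 0.00161.

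Among GC-rich leaders the predicted openness followed the sum of A and C more closely than any single base. The range of GC content is narrow by the rule (SD 3.35 against 5.90 in the others), which limits any correlation with it. Across the 103 genes the Pearson correlation of leader unpaired probability was −0.104 with GC content and 0.00457 with length. It was 0.377 with A content, 0.292 with C, −0.342 with G, −0.331 with U and 0.506 with the sum of A and C. In the 1474 others the signs for A, C, G and U were the same and A plus C gave 0.643, while GC content gave −0.228 and length −0.153. These are descriptions across genes, and base contents of 1 leader depend on each other and enter the folding model.

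GC-rich leaders in which C exceeded G by 10 percentage points or more were the most open of the set. In these 27 genes the unpaired probability was 0.5003 ± 0.0786, against 0.442 ± 0.0881 in the 53 genes with balanced G and C and 0.437 ± 0.101 in the 23 genes with G in excess. A hairpin at −5 kcal/mol or lower was present in 4 of 27, 28 of 53 and 10 of 23 leaders, in this order. The first 10 nt had unpaired probabilities of 0.510 ± 0.192, 0.406 ± 0.213 and 0.329 ± 0.153. The leader's C bases were unpaired with a probability of 0.468 in the first group and 0.266 in the last, and its G bases with 0.304 and 0.397. The share of pairing with the constant end was 31.1% ± 19.0, 18.5% ± 17.6 and 16.3% ± 17.0, so it was highest where C was in excess. This grouping was made after the values were seen.

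GLN3 was the most open GC-rich leader, with 0.707 over 81 nt. Like GAT1 it encodes a GATA activator of nitrogen genes, whose leader had 0.396, below the GC-rich median of 0.453. The stretch of GLN3 shown above ends 9 nt before the start codon, and 44 of the A and C bases of the leader (80%) were unpaired with a probability above 0.5. MNP1 (0.683), which encodes a protein of the mitochondrial ribosome, FMP10 (0.654), SUA7 (0.644), which encodes TFIIB, YAT1 (0.634), SUI3 (0.625), HAC1 (0.610) and TIR3 (0.598), which encodes a cell wall mannoprotein, followed. C exceeded G by 10 points or more in 4 of these 8. The other way went FMP10, with 32.4% G and 20.6% C, and SUA7, with 37.2% G and 11.6% C. HAC1, the transcription factor gene of the unfolded protein response, had 41.5% C and 9.23% G, and the weakest complete fold but 1 of the 103 RNAs at −36.3 kcal/mol. The background known for its mRNA is that the leader pairs with the intron to block translation. The intron is not part of this construct.

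The most paired leaders among genes with a symbol lay between 0.305 and 0.332. MOG1 (0.305), which encodes a Ran-binding protein of nuclear transport, SPT3 (0.316), a SAGA subunit gene, LOT6 (0.326), a quinone reductase gene, EMC3 (0.327), SNA4 (0.327), NUP49 (0.328), a nuclear pore protein gene, PRS5 (0.330) and BUD17 (0.332) made up the 8. They differed in where they paired. SPT3 paired within the leader (51.8%), and its 29-nt hairpin shown above ends 1 nt before the start codon. SNA4 paired almost wholly with the coding part (98.6%), as did OST3 (99.96%) and MTC4 (99.8%). NUP49 paired with the constant end (56.9%) and the coding part (42.4%).

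For DMS probing the count of readable bases matters as much as pairing. A and C together made up 56.5% ± 10.4 of GC-rich leaders and 56.4% ± 9.28 of the others, so a GC-rich leader offered as large a share of readable bases. Of these, 51.6% ± 13.9 were predicted unpaired with a probability above 0.5, against 56.9% ± 13.9 (difference −5.34 percentage points, SE 1.42). In number this came to 13.7 ± 7.32 bases per GC-rich leader and 19.9 ± 8.83 per other leader. These numbers were not matched for length, with mean lengths of 46.3 and 62.3 nt. In GC-rich leaders the number ran from 3 in SPC105, a kinetochore gene, and YOR105W to 44 in GLN3. By base, C was less often unpaired in GC-rich leaders (0.363 ± 0.134 against 0.402 ± 0.154) and A about equally (0.613 ± 0.154 against 0.626 ± 0.126).

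The coding stretch after the start codon, which the choice of leaders did not use, was also richer in G and C. It held 44.9% ± 5.80 in genes with a GC-rich leader and 42.3% ± 5.47 in the others, a difference of 2.60 percentage points (SE 0.589) that is smaller than the SD among genes. The difference was 2.49 points (SE 0.741), 3.18 (SE 1.18) and 3.16 (SE 1.50) from the shortest to the longest length band. Across all GC steps of the leader up to 44% the mean stayed between 42.0% and 42.4%, and it was 43.2%, 44.1% and 46.7% in the 3 steps above. SMX3, which encodes an Sm protein of the spliceosome, had the highest value of the named genes (62.1%), followed by YAT1 (61.9%), CCR4 (56.6%), which encodes the main mRNA deadenylase, and ADE57 (54.5%), a gene of purine synthesis. GSF2 (34.8%), PRP40 (35.1%), a splicing factor gene, COQ8 (35.2%), a gene for coenzyme Q synthesis, and PET494 (36.6%) had the lowest, so the PET494 insert joined a leader of 61.4% GC to a coding stretch poor in GC. The predicted openness of the coding part did not follow, at 0.442 ± 0.0531 against 0.436 ± 0.0610.

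Runs of C set GC-rich leaders apart more than runs of G. The letters were searched on the RNA strand alone, and a longer run also counts for the shorter motif it holds. CCCC was found in 15 of 103 leaders (14.6%) against 3.61% of all genes, and GGGG in 6 (5.83%) against 4.82% of all genes. CCC was found in 37 (35.9%) against 20.7% of all genes. GGG was found in 31 (30.1%) against 22.4% of all genes, so runs of 3 G were also more frequent. CGC was found in 59 (57.3%) against 26.4% of all genes, and GCC in 49 (47.6%) against 25.3% of the others. The longer words were rare, GGCGG in 3 leaders and GCCGCC in 1, against 0.611% and 0.339% of the others. A match is a matter of letters, and GC-rich sequence holds such words more often by composition.

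Lower-case AGT codons stand in the pool for upstream AUGs, which a scanning ribosome could use before the start codon. They were present in the longest GC-rich leader of 12 of 103 genes (11.7%, Wilson interval 6.79 to 19.3) against 16.9% of all genes, and per 100 nt their number was 0.304 against 0.353 in the others. MOG1 and GTA1 held 2 each. Over all 119 leaders there were 16 such codons in 14 leaders, and the pool held 16 variant RNAs named after these leaders. No RNA with an inserted stem-loop was named after a GC-rich leader in the table as deposited. That table ends after 1048575 positions and may lack pool RNAs, so these counts do not speak for the whole pool.

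Many of these genes had leaders of more than 1 length in the pool. Of the 103 genes, 69 had several wild-type leaders in the pool and 15 had more than 1 GC-rich leader. A leader longer than the longest GC-rich one was present for 26 genes, and in all 26 it ended in the shorter leader's sequence. The added 5′ stretch had a median GC content of 39.2% (range 18.8% to 51.0%). In 25 of the 26 genes the longer leader lay below 48%, which the choice of the longest member entails for any leader within the length limits, and the exception had 113 nt. The unpaired probability went down with the added stretch in 13 of 25 genes. In LOT6 it went from 0.326 to 0.483 as 32 nt with 18.8% GC were added, and in SUA7 it went from 0.644 to 0.515 with 18 nt at 44.4%.

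Leaders of the same gene differed in the predicted state of the start codon. The 44 genes with at least 2 leaders within the length limits are taken here with leaders of any GC content. Their start window differed between leaders by a median of 0.0549, and by up to 0.291 in YPP1, from 0.261 at 76 nt to 0.552 at 99 nt. Both these YPP1 leaders lay below the limit, with 46.1% and 43.4% GC, and its GC-rich leader of 36 nt had 0.326. In SUA7 the range was 0.259 and in ADE57 0.267. The insert has a fixed length, so a longer leader also ends earlier in the coding sequence, and both changes are part of these values. The GAT1 leaders of 33 and 63 nt had nearly equal leader means (0.393 and 0.396), but the shorter one paired 35.6% within itself and 36.0% with the constant end, and the longer one 84.0% and 4.11%. The PET494 leaders of 30 and 44 nt had 0.343 and 0.378.

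By function, the GC-rich leaders were spread over many small groups of genes. Of 16 lists built from gene symbols, 10 had no gene with a GC-rich leader, among them the cytosolic ribosome (0 of 38 genes with an eligible leader), the mitochondrial ribosome (0 of 24), amino acid synthesis (0 of 32), the proteasome (0 of 14) and mitochondrial import (0 of 14). Against the 6.53% over all genes, respiration had 2 of 26 (COQ8 and SDH7), glycosylation 1 of 23 (OST3), vacuolar sorting 1 of 18 (VMA4), secretion 1 of 10 (SEC11) and peroxisomes 1 of 9 (PEX10). The kinetochore and spindle list had 2 of 14, SPC105 and SPC3, but SPC3 matches by symbol only and encodes a signal peptidase subunit, as does SEC11. Names outside the symbol lists count here as outside, so MNP1 of the mitochondrial ribosome is not among the 24. In the cytosolic ribosome list the median GC content of eligible leaders was 31.2%, and in the mitochondrial ribosome list 37.4%, against 35.6% over all genes.

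Genes of related function are set side by side here in groups formed after the gene names had been read, with no count of the eligible genes of each kind. For reference, 64.1% of all GC-rich leaders lay below the median unpaired probability of all genes, and with so few genes a group the counts below show nothing particular to a group. The 3 genes of the initiation factors eIF2 and eIF2B, SUI3 (eIF2β), GCD11 (eIF2γ) and GCD1 (eIF2Bγ), which deliver the initiator tRNA and recycle the factor, had GC contents of 48.4%, 49.1% and 53.5%. Their leaders were all above the median of all genes in unpaired probability, at 0.625, 0.525 and 0.528. The 4 splicing genes PRP40, CWC15, LSM5 and SMX3 ran from 0.399 to 0.571, with 1 below that median. The 12 genes for chromatin and transcription were STH1 and RSC2 of the RSC remodeller, SPT3 and NGG1 of SAGA, EAF5 and EAF7 of the NuA4 acetyltransferase, DEP1, RRN5, UAF30, TAF13, SUA7 and CSE2. Of these, 9 lay below it, with a range from 0.316 to 0.644.

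The reference for the next counts is again the 64.1% of all GC-rich leaders below the median of all genes. Among 10 genes for mitochondrial proteins 8 lay below the median, from 0.343 in COQ8 to 0.683 in MNP1. The 7 genes of the endoplasmic reticulum ran from 0.327 in EMC3 to 0.549 in YSY6, with 5 below. The nitrogen genes GAT1, GLN3, CAR2 (ornithine transaminase) and ASP1 (asparaginase) ran from 0.396 to 0.707, with 3 below. CAR2 had no U in its 34 nt, 41.2% C and 47.1% A, and an open start window of 0.693. The kinetochore genes NUF2 and SPC105 were both closed, at 0.335 and 0.362, and the phosphoribosyl pyrophosphate synthetase genes PRS4 and PRS5 stood apart at 0.590 and 0.330.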

How the data were processed

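The deposited data are 1 table of the whole series, in which the authors gave the reference base of each position of each pool RNA as a letter. Per the submitters' processing notes, STAR and SAMtools were among the tools. What each did, and which genome build was used, was not given in the sources used here. Only names and bases were used. The 6 value columns name a replicate number that 3 of the 9 samples share and no condition, so they were left out and no sample entered a comparison. The table ends after 1048575 positions, and 110 of the 119 leaders come from genes named on the Watson strand. Counted by gene, these were 96 of 103 genes with a GC-rich leader and 1397 of 1474 others, so both sets share this skew.

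Bases were joined in file order. The leader runs from the base after GGG to the lower-case start codon of a complete RNA of 182 nt. Locus tags were matched to symbols in a RefSeq table of assembly R64 (94 of 103 genes). Its coordinates were not used. Complete RNAs and leaders alone were folded with ViennaRNA 2.7.2 at 30 °C, with checks on made-up RNAs of known structure. The fold has no reactivity data, or protein.

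Means are over genes, 1 longest leader per gene, with the SD over genes. No test was made, since leaders are not replicates. SEs and Wilson intervals treat genes as independent. The leaders and lists were chosen with earlier results of these data known. Named genes are the 10 highest in GC, the 8 most and least paired, the 6 strongest hairpins, the 4 highest and lowest in coding GC, those at the limit, those with 2 AGT codons and the members of the 16 lists; others were named after their values were seen.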

Additional observations from a re-analysis of the deposited data

How the results depend on the processing

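No paired analysis was possible because no sample value was used. Alternatives were each leader on its own, the shortest leader per gene, GC limits of 45% and 50%, no limit on runs, Watson-strand genes, other folding settings and, chosen after seeing the data, 3 length bands. Differences are GC-rich minus other leaders. For the unpaired probability of the leader the difference of −0.0354 was −0.0584 at 30 to 39 nt, −0.0179 (SE 0.0224) at 60 nt or more and −0.0192 with the insert folded alone. Around the start codon it turned to −0.0167 at 45% GC, −0.00142 at 50% and −0.0197 at 30 to 39 nt. For the first 10 nt it was −0.0801 at 30 to 39 nt and turned to 0.0470 at 60 nt or more. For the leader's own share of pairing, −14.6 points over all lengths became −6.10, −8.56 and −7.81 in the bands. The energy per nt differed by −0.0700 at 40 to 59 nt and −0.0593 at 60 nt or more. The share of GC-rich leaders with a hairpin, 40.8% and below that of the others, was above it for each leader on its own (43.7% against 42.0%), the shortest leaders (37.9% against 31.8%), a limit of 45% (48.7% against 45.2%), folding at 37 °C (36.9% against 33.5%) and in each length band (14.3%, 56.2% and 77.3%). With a limit of −8 kcal/mol it was 22.3%. Leaders of 30 to 39 nt with an AGT codon made up 10.2% against 9.84%. The differences in coding GC, A before the start codon and unpaired A and C kept their direction in the alternatives run. The cause of these shifts was not tested. No depth applies to sequences.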
